A study of Mus musculus with 6 samples.

Results

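Lecticans, the link proteins that hold them on hyaluronan, tenascins, a receptor phosphatase proteoglycan and a hyaluronan synthase were followed here as 10 genes, taken by gene name from the 26554 features of each library: Acan, Bcan, Ncan, Vcan, Hapln1, Hapln4, Tnr, Tnc, Ptprz1 and Has2. The study models pain after a thalamic stroke in mice and compares RNA of the injected region. The tissue was VPL/VPM, the ventral posterior nuclei through which touch and pain signals reach the cortex, of wild-type C57 mice. One group of 3 libraries came from mice given 10 nL of type IV collagenase (0.01 U) into the right VPL/VPM, an enzyme that opens vessel walls and so causes a local haemorrhage. The other group of 3 came from mice given 10 nL of saline, and tissue of both groups was taken at day 14. The labels give no age and do not say whether a library is 1 animal or a pool, so the spread behind each p-value is that between these libraries and may be technical.

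Perineuronal nets are dense coats of extracellular matrix around the cell bodies of certain neurons, above all inhibitory neurons that fire fast and contain parvalbumin. Hyaluronan chains made at the cell membrane form the backbone, lecticans (chondroitin sulfate proteoglycans) bind to it through their N-terminal domain, link proteins fix that bond, and trimers of tenascin-R cross-link the other end of the lecticans. The same molecules also form a looser matrix between brain cells, and after injury some of them are known to be made by reactive astrocytes and oligodendrocyte precursors, where they restrict axon growth. Only RNA was measured, so the matrix itself, which persists for a long time as protein, was not observed.

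None of the 10 genes differed between collagenase and saline libraries beyond the spread between replicates. In edgeR's quasi-likelihood test 0 of 10 passed a Benjamini-Hochberg adjusted p of 0.05, where 2.41% of 17240 tested genes did, so a count of 0 among 10 genes is close to the background. At an unadjusted p under 0.05 the edgeR count was also 0, where 12% of all tested genes lay. DESeq2 and limma on the deposited FPKM values likewise gave 0 genes, adjusted or unadjusted. The values of both groups overlapped for each of the 10 genes, while 17.6% of tested genes had groups that did not overlap. Of the 10 log2 fold changes 4 were positive and 6 negative, with a median of -0.01 beside -0.02 over all tested genes. In bulk tissue, fewer cells of a type and less RNA per cell cannot be told apart.

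The libraries held 33603076 to 44815451 counts. Saline replicate 3 stood apart within its group. Its 10 markers of choroid plexus and ependyma, tissue next to the thalamus, summed to 56.8 CPM (counts scaled to library size) against 958 and 2636 CPM in saline replicates 1 and 2. Its 10 habenula markers summed to 255 CPM, the most of its group, where saline replicate 1 had 40.4 CPM. Among collagenase libraries, replicate 3 likewise had the lowest choroid plexus sum (57.3 CPM, against 1865 and 2015 CPM) and the highest habenula sum (305 CPM, where collagenase replicate 2 had 108 CPM). Saline replicate 3 was the highest of the 6 libraries for 6 of the 10 genes, Ncan, Vcan, Hapln4, Tnr, Tnc and Ptprz1, and the lowest for Acan and Bcan. All 10 relay neuron markers, Slc17a6, Tcf7l2 and Prkcd among them, had counts in every library. They summed to 2755 to 4369 CPM in the saline group, with saline replicate 3 the highest, and 2840 to 3408 CPM in the collagenase group. Saline replicate 3 also had the highest sums of the 6 libraries for markers of oligodendrocyte precursors (882 CPM) and myelinating oligodendrocytes (17096 CPM). Its sums for markers of reactive astrocytes (91.9 CPM) and fibroblasts (141 CPM) were the lowest. The part of tissue composition in the levels of the 10 genes was not tested.

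Per length of transcript, brevican and the link protein Hapln4 were the most abundant of the 10. On the FPKM scale, which divides by length and so allows genes to be compared, Bcan averaged 74.7 ± 7.30 (SD over 6 libraries) and Hapln4 54.5 ± 7.70, and Bcan was above Hapln4 in 5 of 6 libraries. Ptprz1 followed at 38.1 ± 3.85, Ncan at 14.1 ± 1.95 and Tnr at 8.79 ± 1.21, each below the previous gene in all 6 libraries. Tnc (2.68 ± 0.604), Vcan (2.41 ± 0.542) and Hapln1 (2.01 ± 0.386) lay together, and their ranges overlapped. Acan, the lectican that defines many perineuronal nets, was far lower at 0.533 ± 0.132, and Has2 was the lowest at 0.113 ± 0.0441. The mean of Bcan was 658 times that of Has2.

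**Figure D1:**
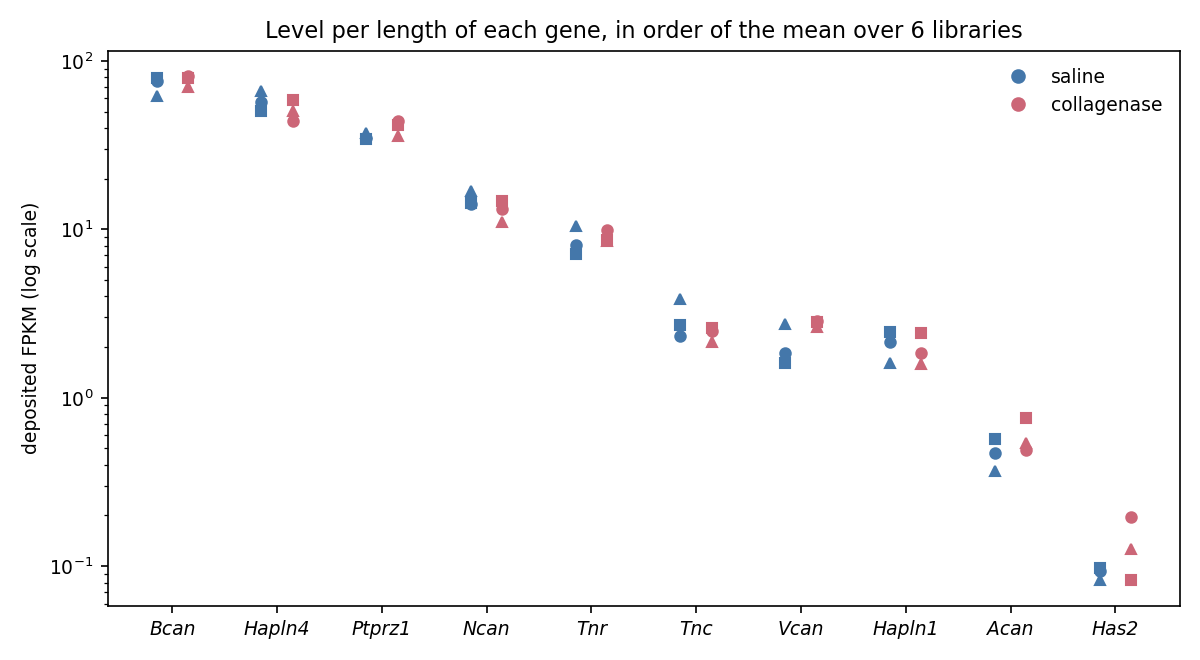
Deposited FPKM (log scale) of each of the 10 genes, with genes in order of their mean over 6 libraries; circles, squares and triangles are replicates 1, 2 and 3 of saline (blue) and collagenase (red). Bcan and Hapln4 lead, Tnc, Vcan and Hapln1 overlap near 2 FPKM, and Acan and Has2 lie below 1 FPKM in every library.

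Among the 4 lecticans, Bcan carried most of the signal in both groups. Its share of the summed lectican FPKM was 82.2%, 82.7% and 75.6% in saline replicates 1 to 3. The collagenase replicates had 83.1%, 81.2% and 83.1%. Ncan made up 17.0 ± 3.16% in saline and 13.9 ± 1.05% in collagenase libraries (SD, n = 3 per group), Vcan 2.33 ± 0.866% and 2.97 ± 0.130%, and Acan 0.518 ± 0.0755% and 0.638 ± 0.141%. The saline replicate with the low Bcan share, replicate 3, was the one with the highest Ncan share, 20.6%. The summed lectican FPKM was 90.1 ± 6.92 for saline and 93.3 ± 7.96 for collagenase. With CPM divided by a fixed gene length instead of FPKM, the mean Vcan share was 2.05% in saline and 2.18% in collagenase libraries. Bcan then had 76.3% and 79.6%, Ncan 21.0% and 17.4%, and Acan 0.629% and 0.789%. These shares are descriptions and were not tested.

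Bcan (ENSMUSG00000004892, chromosome 3, 87987531 to 88000230, minus strand, GRCm38) encodes brevican, a small lectican of astrocytes and of the matrix around synapses. Its saline replicates 1, 2 and 3 were at 254, 258 and 228 CPM, and the collagenase replicates at 250.0, 259 and 229.7 CPM. In both groups replicate 3 was the lowest, and the groups covered the same range. The log2 fold change was -0.004 with a standard error (SE) of 0.10 and a 95% interval from -0.23 to 0.23, which on the linear scale spans 0.850 to 1.17 times the saline level. This was the narrowest interval of the 10 genes.

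Ncan (ENSMUSG00000002341, chromosome 8, 70093085 to 70120873, minus strand) encodes neurocan, a lectican made by neurons and astrocytes. Its levels were 109, 108 and 143 CPM in saline and 93.3, 111 and 83.3 CPM in collagenase replicates 1, 2 and 3. Collagenase replicate 2 lay above 2 of the saline libraries, so the groups overlapped. The log2 fold change of -0.32 (SE 0.15, 95% interval -0.67 to 0.02) did not pass (edgeR adjusted p 0.457), and without saline replicate 3 it was -0.18.

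Acan (ENSMUSG00000030607, chromosome 7, 79053483 to 79115099, plus strand) encodes aggrecan, the lectican found mainly in perineuronal nets. It rested on 109 to 218 counts a library. It measured 3.65, 4.36 and 3.20 CPM in saline and 3.51, 5.86 and 4.15 CPM in collagenase replicates 1, 2 and 3, with collagenase replicate 2 the highest. Its log2 fold change was 0.27 (SE 0.24, 95% interval -0.29 to 0.83, edgeR adjusted p 0.753). Without collagenase replicate 2 it was 0.03.

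Vcan (ENSMUSG00000021614, chromosome 13, 89655312 to 89742509, minus strand) encodes versican, the largest lectican by its longest transcript, made in brain mainly by oligodendrocyte-lineage cells. By counts it measured 21.7, 20.1 and 28.6 CPM in saline and 25.5, 23.3 and 22.9 CPM in collagenase replicates 1, 2 and 3. The collagenase libraries lay inside the saline range. For the counts the log2 fold change was 0.03 (SE 0.15, 95% interval -0.31 to 0.36).

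Versican is made in 4 forms that differ by whether exons 7 and 8, which code for the regions that carry chondroitin sulfate chains, are kept. In GENCODE M21 (GRCm38) exon 7 covers chromosome 13 from 89702918 to 89705797 (2880 bases) and exon 8 from 89688285 to 89693501 (5217 bases). The form with both exons, V0, has 12427 bases, V1 (without exon 7) has 8332, V2 (without exon 8) has 5702 and V3 (without either) has 2321. The joins that tell these forms apart are shown because the forms differ in length and the deposited FPKM divides by a length. Each is 30 bases of the GENCODE transcript sequence, read 5′ to 3′ on the minus strand of the chromosome, with the bases of the downstream exon in capitals.
V0, exon 6 to exon 7: cctactgctttaaacCTAAACAGAATATAT
V0, exon 7 to exon 8: gagaaaacaagacagGTCGATTGAGTGATA
V1, exon 6 to exon 8: cctactgctttaaacGTCGATTGAGTGATA
V2, exon 7 to exon 9: gagaaaacaagacagGACCTGATCTCTGCA
V3, exon 6 to exon 9: cctactgctttaaacGACCTGATCTCTGCA
V1 and V3 share the end of exon 6 with V0, and V2 shares the end of exon 7. As V2 keeps exon 7, the join of exon 6 to exon 7 belongs to V2 as well and does not separate it from V0. Of the joins shown for V0, only that of exon 7 to exon 8 is particular to V0 among these forms. The deposited gene totals hold no counts per join, so the forms were not measured one by one.

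For Vcan the deposited counts and FPKM values moved apart between libraries. FPKM was 1.84, 1.61 and 2.73 in saline and 2.85, 2.82 and 2.63 in collagenase replicates 1, 2 and 3, so that 2 of 3 collagenase libraries lay above all saline libraries. Dividing count by FPKM and library total gives the transcript length that the FPKM implies, scaled here so that the typical gene has the same length in each library. That implied length was 11.7, 12.6 and 9.46 kb in saline and 9.65, 8.37 and 8.80 kb in collagenase replicates 1, 2 and 3. Saline replicates 1 and 2 were the longest, and saline replicate 3 lay among the collagenase libraries. The groups overlapped, and an exact two-sided permutation test gave p = 0.2 for the implied length and p = 0.2 for FPKM, where 0.1 is the smallest p that 3 against 3 allows. The highest library was 1.504 times the lowest for Vcan, against a median of 1.01 times over 12122 tested genes with at least 100 counts in each library, and 0.767% of those genes had a ratio as large.

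Ptprz1 (ENSMUSG00000068748, chromosome 6, 22875502 to 23052916, plus strand) encodes a receptor tyrosine phosphatase of astrocytes and oligodendrocyte precursors whose secreted part, phosphacan, is a major soluble proteoglycan of brain that binds tenascins. Counts gave 267, 261 and 318 CPM in saline and 298, 285 and 268 CPM in collagenase replicates 1, 2 and 3. All collagenase libraries lay within the saline range. Between groups the log2 fold change was 0.01 (SE 0.11, 95% interval -0.25 to 0.26). FPKM was 34.9, 34.6 and 37.4 in saline replicates 1 to 3, against 43.8, 41.9 and 35.8 in the collagenase replicates, and the groups overlapped.

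The implied length of Ptprz1 was 7.60, 7.62 and 7.67 kb in saline replicates 1 to 3, against 7.35, 6.90 and 7.54 kb in the collagenase replicates. Here the groups did not overlap, as for 9.73% of the 12122 genes, and the exact two-sided permutation p was 0.1, the smallest that 3 against 3 allows. GENCODE M21 lists a full-length transcript of 8068 bases, a phosphacan transcript of 6871 bases that ends in an extended exon 12, and a short receptor form of 4947 bases in which exon 12 is 1000 instead of 3547 bases long. The joins of exon 12 to exon 13 of the receptor forms are shown because they separate the long from the short form, each as 30 bases of the plus strand (GRCm38) with exon 13 in capitals.
Ptprz1 full length: acagttcagaggcagAGGCCAGTAATAGTA
Ptprz1 short form: aaccagtatacaatgAGGCCAGTAATAGTA
Whether these forms differ in level between the groups cannot be read from one total per gene. The highest library was 1.11 times the lowest in implied length, and 10.5% of the 12122 genes had a ratio as large. For the other 7 genes with at least 100 counts in each library, all but Has2, the groups overlapped in implied length and the ratio was at most 1.0198.

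**Figure D2:**
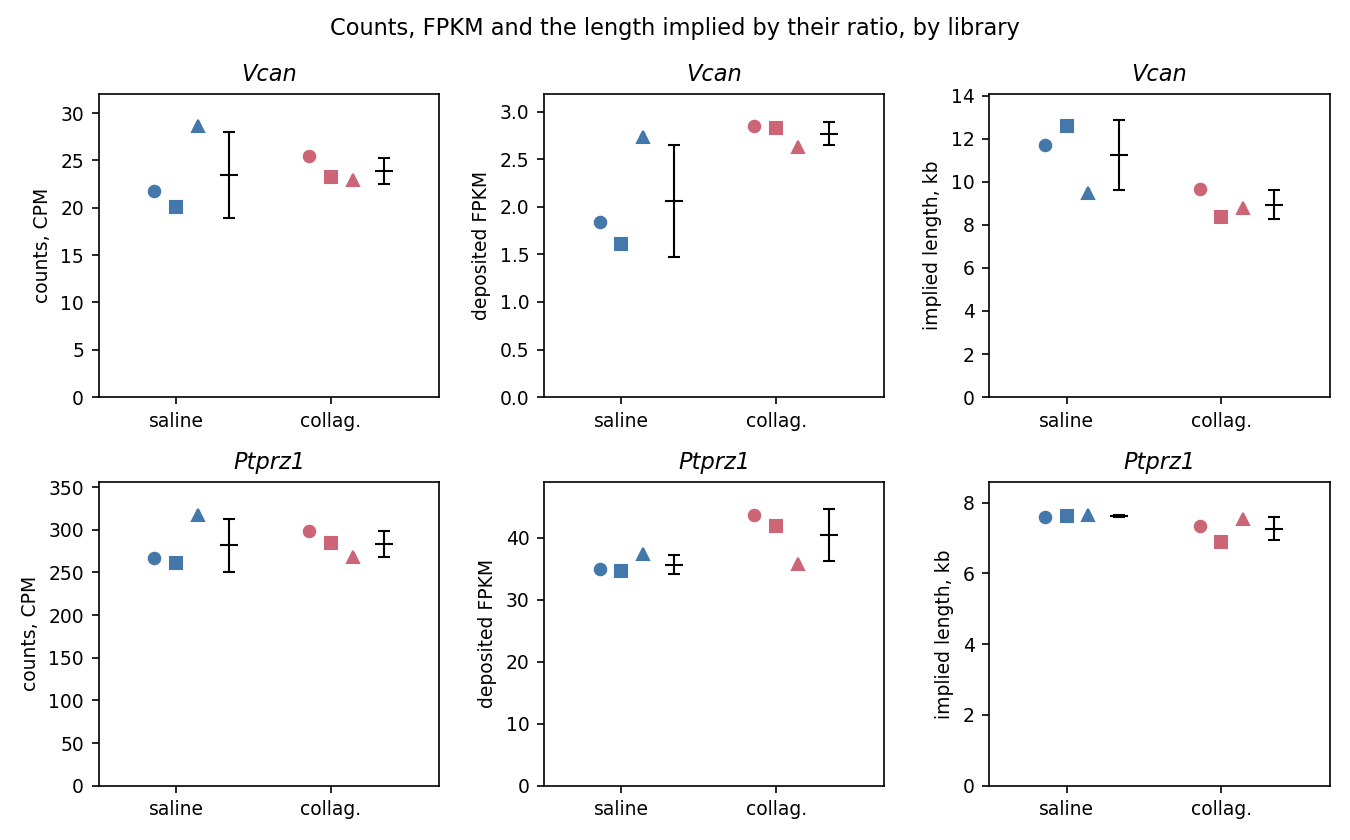
CPM from counts, deposited FPKM and implied transcript length (kb) of Vcan (top) and Ptprz1 (bottom) by library; circles, squares and triangles are replicates 1, 2 and 3, and bars give the mean and SD of 3 libraries. In Vcan, saline replicates 1 and 2 have implied lengths of 11.7 and 12.6 kb and the other 4 libraries lie between 8.37 and 9.65 kb, while the CPM values overlap.

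The link proteins were not called. Hapln4 (ENSMUSG00000007594, chromosome 8, 70083457 to 70090862, plus strand) encodes the link protein that anchors brevican around synapses and nets. It measured 221, 192 and 283 CPM in saline and 158, 222 and 194 CPM in collagenase replicates 1, 2 and 3. The highest value was in saline replicate 3 and the lowest in collagenase replicate 1, with the other 4 libraries mixed. Collagenase over saline gave a log2 fold change of -0.28 (SE 0.17, 95% interval -0.68 to 0.11, edgeR adjusted p 0.603), and without saline replicate 3 it was -0.11.

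Hapln1 (ENSMUSG00000021613, chromosome 13, 89539796 to 89611652, plus strand), the link protein known as a trigger of net assembly, measured 12.96, 14.6 and 10.8 CPM in saline and 10.3, 14.5 and 9.51 CPM in collagenase replicates 1, 2 and 3. Replicate 2 was the highest in both groups. Its log2 fold change was -0.16 (SE 0.20, 95% interval -0.61 to 0.28).

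In the genome each lectican gene lies beside a link protein gene, with no other protein-coding gene between them in GENCODE M21. Ncan and Hapln4 lie tail to tail on chromosome 8 with 2222 bases between them, Vcan and Hapln1 tail to tail on chromosome 13 with 43659 bases, and Bcan and Hapln2 on the same strand of chromosome 3 with 21519 bases. Acan and Hapln3 lie tail to tail with only 2 bases between them. Levels within a pair were unequal for 2 of the 4 pairs: in saline, Hapln4 FPKM was 3.82 times that of Ncan and Bcan was 2.33 times Hapln2. Vcan and Hapln1 were at the same mean level, 2.06 ± 0.590 and 2.06 ± 0.422 FPKM (SD, n = 3). Hapln3, at 0.357 ± 0.167 FPKM in saline, was near Acan at 0.470 ± 0.101. Hapln2, a link protein of the nodes of Ranvier, had a log2 fold change of 0.03 and Hapln3 one of -0.58, and neither passed (edgeR adjusted p 0.956 and 0.691).

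The tenascins and the hyaluronan synthase were not called either. Tnr (ENSMUSG00000015829, chromosome 1, 159523769 to 159931729, plus strand) encodes tenascin-R, made by oligodendrocytes and some neurons and the cross-linker of nets. It measured 104, 89.0 and 148 CPM in saline and 117, 109.9 and 109.7 CPM in collagenase replicates 1, 2 and 3. The collagenase libraries lay close together inside the wide saline range. A log2 fold change of -0.02 resulted (SE 0.18, 95% interval -0.42 to 0.38), and without saline replicate 3 it was 0.22 (edgeR adjusted p 0.246).

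Tnc (ENSMUSG00000028364, chromosome 4, 63959785 to 64047015, minus strand) encodes tenascin-C, a matrix protein of development that astrocytes are known to make again near wounds. It measured 17.3, 20.1 and 31.8 CPM in saline and 17.3, 19.0 and 15.9 CPM in collagenase replicates 1, 2 and 3. A single high library, saline replicate 3, set the difference of the group means. Its log2 fold change was -0.41 (SE 0.22, 95% interval -0.91 to 0.09, edgeR adjusted p 0.531), and without that library it was -0.11. The interval reaches from 0.533 to 1.07 times the saline level.

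Has2 (ENSMUSG00000022367, chromosome 15, 56665627 to 56694539, minus strand) encodes a hyaluronan synthase and rested on 14 to 39 counts a library. It measured 0.428, 0.436 and 0.440 CPM in saline and 0.819, 0.376 and 0.570 CPM in collagenase replicates 1, 2 and 3. The saline libraries were close together and the collagenase libraries lay on both sides of them. The log2 fold change of 0.44 had the widest interval of the 10 genes, -0.47 to 1.36 (SE 0.40, edgeR adjusted p 0.751). On the linear scale this spans 0.724 to 2.56 times the saline level. Exons of Tnr, Tnc and Has2 each overlap those of a gene on the opposite strand in GENCODE M21 (Gm38039, 8030451A03Rik and Has2os), and without strand the reads of both cannot be told apart.

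**Figure D3:**
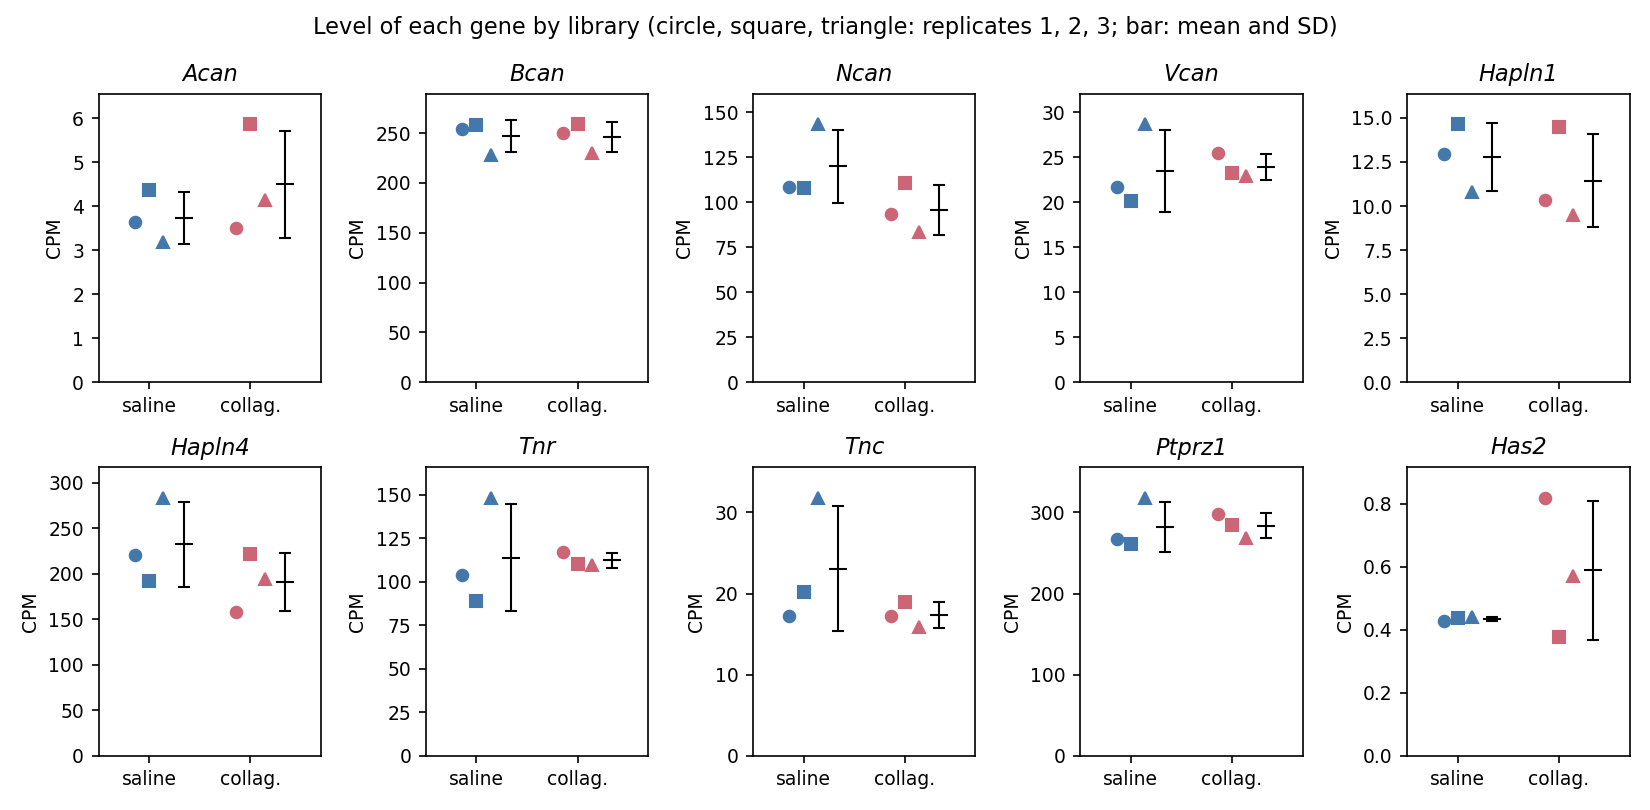
CPM of each of the 10 genes by library, with replicates 1, 2 and 3 as circles, squares and triangles and the mean and SD of 3 libraries as bars. The groups overlap in every panel, and saline replicate 3 is the highest library for Ncan, Vcan, Hapln4, Tnr, Tnc and Ptprz1.

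Genes linked to this matrix, among them receptors, proteases and degrading enzymes, were counted in 5 lists, here called the matrix lists. Of 92 tested genes 6 rose and 0 fell, where 2.12% of all tested genes rose and 0.29% fell. The 6 were Dcn, Bgn, Cd44, Stab1, Gusb and Mmp3. At an unadjusted p under 0.05 the lists held 20 of the 92, beside 12% of all tested genes. DESeq2 called 10 listed genes higher.

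Of 10 tested genes for other link proteins, hyaluronan synthases and proteoglycans, 2 rose, and the list median was 0.13 on the log2 scale. Dcn (decorin), a small leucine-rich proteoglycan of connective tissue, averaged 16.7 ± 4.70 CPM for saline and 39.6 ± 11.1 CPM for collagenase (SD, n = 3 each), and its rise was 1.25 on the log2 scale (SE 0.25, edgeR adjusted p 0.0423). Bgn (biglycan), of the same family, was at 20.7 ± 3.17 CPM in saline and rose by 0.88 on the log2 scale to 38.0 ± 2.17 CPM (edgeR adjusted p 0.0152). Prg4 (1.23 ± 0.685 and 3.27 ± 2.10 CPM) and Cspg4, the NG2 proteoglycan of oligodendrocyte precursors (18.9 ± 1.96 and 22.0 ± 2.33 CPM), did not pass. Dcn is also 1 of the 10 fibroblast markers, which summed to 141 to 275 CPM in the saline group and 341 to 402 CPM in the collagenase group, with 4 of 10 higher. The part of fibroblast content in these rises was not tested.

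Of 14 tested hyaluronan receptors and degrading enzymes 2 rose, with a list median of 0.35. Cd44, the main cell surface receptor for hyaluronan, measured 5.70, 4.89 and 6.07 CPM in saline and 20.7, 15.6 and 14.3 CPM in collagenase replicates 1, 2 and 3. Every collagenase library lay above every saline library. Cd44 rose by 1.60 on the log2 scale (SE 0.18, edgeR adjusted p 0.00461). It is also 1 of the 10 reactive astrocyte markers described further on, and the part of those cells in its rise was not tested. Stab1, a scavenger receptor of macrophages that belongs to the hyaluronan-binding stabilins, rose to 23.9 ± 4.09 CPM, with 11.5 ± 2.07 CPM in saline (edgeR adjusted p 0.0229). Itih2 and Itih5, of the family whose heavy chains attach to hyaluronan, did not pass. Itih2 was at 2.09 ± 0.530 CPM in saline against 5.04 ± 2.08 CPM, and Itih5 at 54.6 ± 5.43 CPM against 69.4 ± 3.16 CPM. Of the alternatives, DESeq2 alone called Itih2 (adjusted p 0.0110), and edgeR without saline replicate 3 alone called Itih5 (adjusted p 0.0480).

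Of 22 tested genes of chondroitin sulfate synthesis and sulfation 1 rose, with a list median of -0.02. That gene was Gusb, a lysosomal beta-glucuronidase that takes part in the breakdown of such chains, not their synthesis. It was at 14.7 ± 2.74 CPM for saline and 26.7 ± 3.29 CPM for collagenase, 0.86 higher on the log2 scale (edgeR adjusted p 0.0343). Dse, an epimerase that makes dermatan sulfate, measured 5.18 ± 1.27 and 8.27 ± 0.838 CPM, and Chst14, a dermatan sulfotransferase, 2.87 ± 0.0599 and 4.21 ± 0.434 CPM. Neither passed.

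Of 17 tested proteases that cut lecticans and their inhibitors 1 rose, with a list median of 0.15. Mmp3 (stromelysin) had 0 counts in saline and 17.4, 6.51 and 3.89 CPM in collagenase replicates 1, 2 and 3. The collagenase mean was at least 349-fold higher against a floor of 3 counts over the saline group (edgeR adjusted p 0.0327). Timp1, a metalloproteinase inhibitor, did not pass at 0.195 ± 0.263 CPM in saline against 2.69 ± 0.788 CPM (edgeR adjusted p 0.0654). DESeq2 called Timp1 (adjusted p 2.1e-05), as did limma on filtered log2(FPKM + 0.1) and log2(FPKM + 1) (adjusted p 0.0245 and 0.00897). Without saline replicate 2 or 3 edgeR called it too (adjusted p 0.0122 and 0.0291). It was not called without saline replicate 1 or any single collagenase library, with the replicate block or with limma on unfiltered FPKM. Nor was Timp1 called with other size factors, without the filter on low counts or with non-robust dispersions (edgeR adjusted p 0.0658, 0.105 and 0.0611). Mmp9, a gelatinase, did not pass either, at 1.17 ± 0.311 CPM against 2.65 ± 0.637 CPM. Of the alternatives, DESeq2 alone called Mmp9 (adjusted p 0.0304). Among the aggrecanases, Adamts4 had a log2 fold change of 0.01 and Adamts5 one of 0.59, and neither passed.

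Of 29 tested receptors and partners of lecticans and tenascins 0 passed with edgeR, DESeq2 or limma, and 3 had an unadjusted p under 0.05 in edgeR, a share near the 12% of all tested genes. The list median was -0.07. Lingo1, part of the Nogo receptor complex, measured 256 ± 52.9 and 196 ± 20.0 CPM, and Ptprf, a phosphatase related to the chondroitin sulfate receptor Ptprs, 62.3 ± 2.45 and 72.6 ± 2.88 CPM.

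Of the 6 called genes, Cd44 kept its call whichever library was left out and under each other alternative. The calls of Bgn and Gusb were lost without saline replicate 1 or any single collagenase library, that of Stab1 without saline replicate 1 or collagenase replicate 1 or 2, and that of Dcn without any library except saline replicate 2. The call of Mmp3 was lost without any saline library or collagenase replicate 2, and also without the filter on low counts (edgeR adjusted p 0.108). Dcn was not called with the replicate block (edgeR adjusted p 0.109) or with limma on unfiltered FPKM (adjusted p 0.105). Stab1 and Gusb were not called in any of the 3 limma fits on FPKM, with adjusted p from 0.0609 to 0.105 for Stab1 and from 0.0525 to 0.104 for Gusb.

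**Figure D4:**
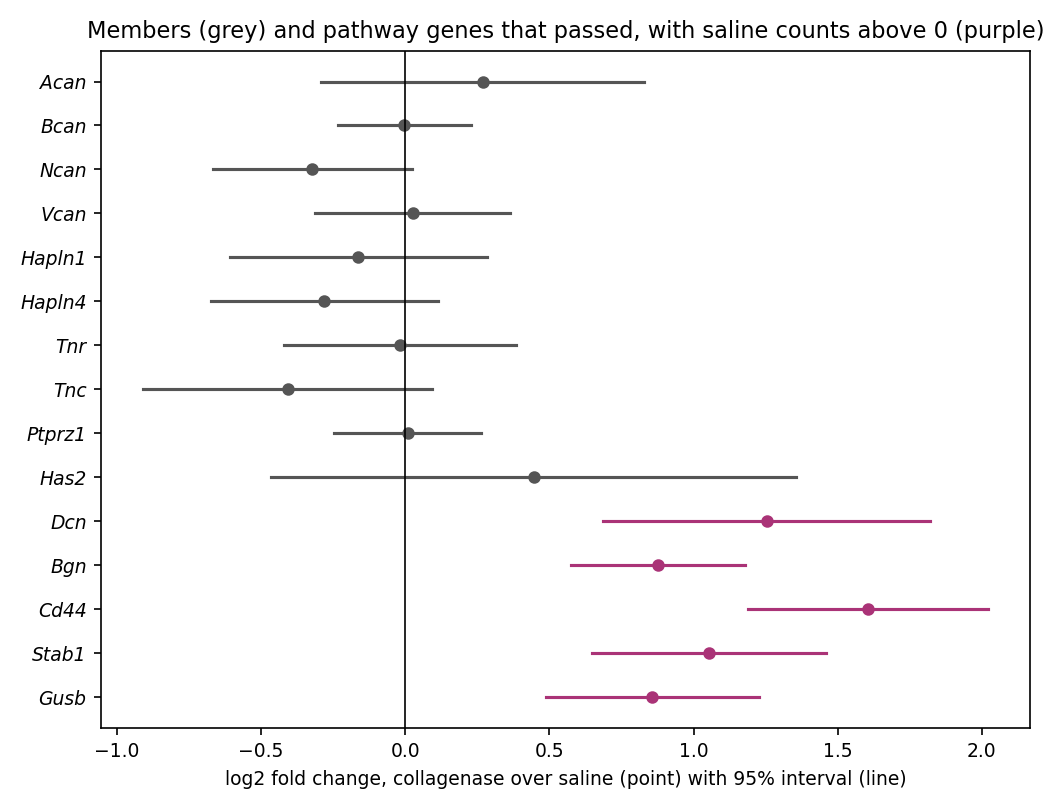
Log2 fold change of collagenase over saline (point) with its 95% interval (line) for the 10 genes (grey) and for 5 called genes of the matrix lists (purple); Mmp3, with 0 saline counts, is left out. The intervals of the 10 genes all include 0, and those of Dcn, Bgn, Cd44, Stab1 and Gusb lie above it.

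Markers of the cells that make this matrix moved unevenly. Of 10 reactive astrocyte markers 7 rose, and their sum went from 91.9 to 117 CPM in saline to 525 to 659 CPM in collagenase libraries. Gfap, the filament protein of reactive astrocytes, measured 175, 251 and 134 CPM in saline and 776, 696 and 442 CPM in collagenase replicates 1, 2 and 3 (log2 fold change 1.78, SE 0.28, edgeR adjusted p 0.0211). The Gfap call was lost without saline replicate 1 or collagenase replicate 1 or 2 (edgeR adjusted p up to 0.120), and with limma on unfiltered FPKM (adjusted p 0.0557). In the same libraries the interval of Bcan stayed between -0.23 and 0.23 and that of Ptprz1 between -0.25 and 0.26. Of 10 astrocyte markers 2 rose, Gfap among them, and of 10 markers of microglia and macrophages 7 rose, beside 2.12% of all tested genes. The astrocyte markers, Gfap included, summed to 3768 to 4133 CPM in the saline group and 4596 to 4947 CPM in the collagenase group. Their log2 fold changes were positive for 9 and negative for 1, with a median of 0.16. The groups did not overlap for 3 of them, beside 17.6% of all tested genes.

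Of 10 oligodendrocyte precursor markers 0 passed (edgeR; 1 at an unadjusted p under 0.05), and their sums overlapped, 749 to 882 CPM in the saline group and 735 to 805 CPM in the collagenase group. Of 12 markers of parvalbumin and reticular neurons, the cells that nets enclose, Spp1 rose by 2.37 on the log2 scale and Dlx1 fell by 1.10 (edgeR adjusted p 0.0165 and 0.0328). Spp1 is also made by macrophages, and its call was lost without any saline library or collagenase replicate 2. The Dlx1 call was lost without saline replicate 1 or any single collagenase library, and in the 3 limma fits on FPKM (adjusted p 0.0711 to 0.114). Of the 12 markers, 7 had an unadjusted p under 0.05 in edgeR, beside 12% of all tested genes, and 6 had groups that did not overlap, beside 17.6%. Their log2 fold changes were negative for 8 and positive for 4, with a median of -0.28. Pvalb itself measured 103, 68.3 and 87.2 CPM in saline and 58.9, 69.8 and 69.2 CPM in collagenase replicates 1, 2 and 3, and did not pass (log2 fold change -0.38, SE 0.15, edgeR adjusted p 0.361). Of 10 hippocampal and cortical markers Slc17a7 fell, with 443 ± 52.0 CPM for saline and 249 ± 13.6 CPM for collagenase, a call lost without saline replicate 1 or any single collagenase library, and in the 3 limma fits on FPKM (adjusted p 0.0506 to 0.0908). All 10 hippocampal and cortical markers, Slc17a7 included, summed to 708 to 872 CPM in the saline group and 456 to 493 CPM in the collagenase group. Their log2 fold changes were negative for 9 and positive for 1, with a median of -0.80, and 2 had groups that did not overlap. The part of these cell types in the levels of the 10 genes was not tested.

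The genes whose levels followed 3 of the members most closely were sought among 13211 tested genes by Pearson's r of log2 CPM over the 6 libraries. For Acan these were Kansl1l (r = 0.996), Brat1 (0.990) and Map4k2 (0.964). For Bcan they were Top3a (0.988), Zfp445 (0.988) and Dusp16 (0.983), and for Tnc they were Tob1 (0.991), Arhgap21 (0.991) and 4833420G17Rik (0.989). None of the 9 passed the edgeR test between groups. With 6 libraries, whose tissue composition differs as given above, and so many genes searched, these values describe the libraries only.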

How the data were processed

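Per the labels' protocols, mRNA was captured with oligo(dT) beads, fragmented and copied with random hexamers, with no step named that marks the strand. HISAT2 2.2.1, StringTie, DESeq2, FastQC and the build GRCm38 stand in the submitters' processing notes, with no roles. Neither the annotation release nor how a gene's FPKM was formed from its transcripts is stated there. Each deposited table holds, per the file headers, 1 count and 1 FPKM value per feature; the counts are whole numbers with unequal totals and were taken as raw. All 10 genes and the lists were chosen with earlier results of these data known.

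The count test was that of edgeR 4.0.16, run under R 4.3.3 (filterByExpr, TMM, robust quasi-likelihood F-test, two-sided, Benjamini-Hochberg over 17240 genes, threshold 0.05); all 10 genes passed the filter. Intervals are 95% intervals of the fit. The deposited FPKM served for levels per length and, as log2(FPKM + 0.1) or log2(FPKM + 1), for limma 3.58.1; DESeq2 1.42.0 was an alternative. Names follow a fixed rule: the 10 genes, list genes that passed and the next 2 by p per list, and Pvalb, Slc17a7 and Gfap. The 3 most alike genes of Acan, Bcan and Tnc were also named. The rule also allowed up to 3 called markers per list by smallest p, but called markers were named for some lists only. Hapln2, Hapln3, Adamts4 and Adamts5 and the markers named for tissue checks were chosen after their values were seen. Floors cover counting error only. The count test was also run on 5 simulated sets of this comparison, of which 17001 to 17020 genes were tested, with 200 genes changed: it called 60.2% of 2-fold and 88.9% of 4-fold changes, and 8.70% of its calls were unchanged genes.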

Additional observations from a re-analysis of the deposited data

How the results depend on the processing

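None of the 10 genes passed in any of the alternatives run (other size factors, DESeq2, no filter on low counts, non-robust dispersions, limma on FPKM, the replicate block, and each library left out); Has2 was below the FPKM filter in 2 of these. Log2 fold changes near 0 changed sign: Bcan was 0.0916 with limma on log2(FPKM + 0.1), with and without the filter, 0.0904 on log2(FPKM + 1), and -0.0585 to 0.0444 over fits without a library. Tnr was 0.103, 0.103 and 0.0924 in those limma fits, 0.0154 with the replicate block, and -0.168 to 0.218 over fits without a library. Vcan (-0.0755 to 0.191) and Ptprz1 (-0.0461 to 0.101) also changed sign over fits without a library. FPKM values carry no TMM scaling, and limma on log2(FPKM + 0.1) shifted the median of shared genes by 0.10; Vcan there was 0.44 (limma adjusted p 0.48), a larger move than that shift.

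Over all genes, 366 rose and 50 fell. DESeq2 called 608 and 180, limma on log2(FPKM + 0.1) 317 higher and 24 lower. On log2(FPKM + 1) limma called 297 higher and 27 lower, and on log2(FPKM + 0.1) without a filter 229 higher and 9 lower. Fits without a library called 81 to 503 higher and 4 to 414 lower. Of the matrix lists 6 genes rose, 10 with DESeq2, 3 with limma without a filter, and 1 to 7 without a library. The cause was not tested. The Bcan share differed by 2.32 percentage points, by 3.26 with CPM divided by gene length, and by 0.0360 to 3.57 without a library. Same-numbered libraries had correlated deviations of r = 0.044, 0.107 and 0.203 for replicates 1, 2 and 3. Saline replicates 2 and 3 correlated best with their own number and saline replicate 1 with collagenase replicate 2 (r = 0.076). As 1 of the 3 pairs was under 0.1, the numbers were not taken to pair the samples; with the replicate block 252 genes rose, 50 fell and 5 list genes rose.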
